A study of Mus musculus with 3 samples.

Results

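The Notch ligand and fringe genes are 8 mouse genes: the ligand genes Jag1, Jag2, Dll1, Dll3 and Dll4, and the fringe genes Lfng, Mfng and Rfng. They were examined among 21887 protein-coding genes for peaks of CHD7 and of SOX2 at their ends (within 1 kb of either border of the gene), inside them, and within 50 kb on each side. The material was the wild-type otocyst, the epithelial vesicle that forms the inner ear, microdissected from mouse embryos at E10.5. Cells from a pool of 34 otocysts, dissociated with Accutase, went into 3 samples of CUT&Tag, a method in which an antibody brings the Tn5 transposase to chromatin near its target. CHD7, a remodeler that moves nucleosomes with ATP and is mutated in CHARGE syndrome, was targeted in the first sample. SOX2, a transcription factor of the sensory regions with an HMG-box DNA-binding domain, was targeted in the second, and the last received no primary antibody. That control is not analysed here, so no background level stands beside the peaks. The series' title places CHD7 and SOX2 in a common network of semicircular canal and cochlear development, and the question followed here is where each protein was detected around the genes that send and tune the Notch signal. The whole otocyst was pooled, so sensory, neurogenic and other cells cannot be told apart.

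Notch ligands are membrane proteins that activate Notch receptors on the neighbouring cell, whose intracellular part is then released and joins the DNA-binding protein RBPJ. Fringe enzymes are Golgi glycosyltransferases that extend O-fucose on the receptor and shift its preference between Delta-type and Jagged-type ligands. In the ear, Jag1 and Lfng are known as genes of the prosensory domain, Dll1 of neuroblasts that leave the epithelium, and Dll1 and Jag2 of nascent hair cells, where they act in lateral inhibition.

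The CHD7 list held 33035 peaks and the SOX2 list 155548, with 1 library each. Read depth is unknown, and no result has a replicate check, so values are described without a test. The signal of a peak is the authors' coverage summed over its bases (total signal) and is given with its percentile within its own list. CHD7 peaks had total signals from 433 upward with a median of 651, and SOX2 peaks from 733 with a median of 997. Signals of the 2 lists are on different scales and were not compared. The maximum signal of a peak, its highest coverage, rose in steps. In these loci low SOX2 values were 1.76, 2.35, 2.93 and 3.52, and 3.52 was at the 55.2nd percentile of the SOX2 list. CHD7 values included 1.28, 1.37 and 1.46. How many fragments a step stands for is unknown, so peaks that rest on few fragments cannot be told apart. A peak marks where signal passed the authors' threshold, and binding itself was not measured.

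The start regions of Lfng, Jag1, Dll1 and Dll3 are shown because they carried peaks of both lists, SOX2 peaks alone, or none. Each line is the 250 bases before a transcription start, 5′ to 3′ along the gene, from the RefSeq table of promoters (GRCm38.p6, the build also called mm10). Capitals mark the 6-letter SOX cores ACAATG and ACAAAG and the RBPJ core TGGGAA, searched on both strands, with no overlapping matches.
Lfng (chr5:140607091-140607340, plus strand): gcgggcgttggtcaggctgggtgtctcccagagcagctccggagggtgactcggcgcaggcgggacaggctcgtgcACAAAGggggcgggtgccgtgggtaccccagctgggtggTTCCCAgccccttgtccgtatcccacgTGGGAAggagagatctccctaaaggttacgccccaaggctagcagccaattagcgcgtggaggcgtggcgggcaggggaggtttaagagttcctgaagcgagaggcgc
Jag1 (chr2:137116521-137116770, minus strand): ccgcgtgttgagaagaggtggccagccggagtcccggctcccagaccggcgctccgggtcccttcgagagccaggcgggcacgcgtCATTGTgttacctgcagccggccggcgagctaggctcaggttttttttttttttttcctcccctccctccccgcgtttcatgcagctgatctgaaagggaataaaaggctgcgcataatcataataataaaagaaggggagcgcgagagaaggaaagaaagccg
Dll1, outer start (chr17:15376933-15377182, minus strand): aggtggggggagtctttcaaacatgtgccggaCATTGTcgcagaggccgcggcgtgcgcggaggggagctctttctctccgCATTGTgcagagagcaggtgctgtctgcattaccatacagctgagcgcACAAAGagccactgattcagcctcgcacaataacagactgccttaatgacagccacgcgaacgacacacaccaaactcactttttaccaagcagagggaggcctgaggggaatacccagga
Dll3 (chr7:28301786-28302035, minus strand): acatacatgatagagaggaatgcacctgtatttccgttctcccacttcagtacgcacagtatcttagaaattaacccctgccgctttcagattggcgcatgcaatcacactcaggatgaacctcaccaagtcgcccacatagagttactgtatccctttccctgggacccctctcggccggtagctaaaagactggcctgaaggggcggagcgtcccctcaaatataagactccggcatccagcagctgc

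The Lfng window lay wholly inside a CHD7 peak and a SOX2 peak, with 250 of 250 bases in each. It held 1 SOX core, 174 to 169 bases before the start, and 2 RBPJ cores, at 135 to 130 and 108 to 103 bases. The Jag1 window had 70 bases in a SOX2 peak, and the CHD7 peak began 31 bases beyond its outer edge. It held 1 SOX core, 164 to 159 bases before the start, outside the part covered by SOX2. The outer Dll1 window had 218 bases in a SOX2 peak and none in a CHD7 peak, and it held 3 SOX cores, at 218 to 213, 169 to 164 and 121 to 116 bases. The Dll3 window, with no peak, held neither motif. Of the other windows, those of Jag2, Dll4, Rfng and the inner Dll1 start also held neither, although all 250 bases at Dll4 and at the inner Dll1 start were inside a SOX2 peak. Among 21263 windows of protein-coding genes 22.8% held at least 1 SOX core, 0.362% held 3 or more, and 20.9% held an RBPJ core, 2.71% at least 2. A match is a description of letters, not a binding site. Mfng had no entry in the table.

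At gene ends the longer SOX2 list reached more of these genes than the CHD7 list, as it did among all protein-coding genes. SOX2 peaks lay at an end of 7 of 8, where 59.7% of all protein-coding genes had one. With ends of 500 bases the count was 5 of 8, near the background of 52.4%. CHD7 peaks lay at an end of Jag1 and Lfng alone among the 8, where the background was 30.8%. The same 2 genes had both proteins at an end, against 28.3% of all genes, so for CHD7 and for both the count of members was near the background. These 2 genes kept their CHD7 end peak among the 10000 strongest peaks of the list, where 13.3% of all genes had one. In both genes the CHD7 peak was at the start, where a SOX2 peak overlapped it. Jag2, Dll1, Dll4, Mfng and Rfng had SOX2 without CHD7 at their ends, and Dll3 had neither. Counted at transcription starts alone, 6 of 7 genes had SOX2 (background 54.9%) and 2 of 7 CHD7 (background 31.0%).

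**Figure D1:**
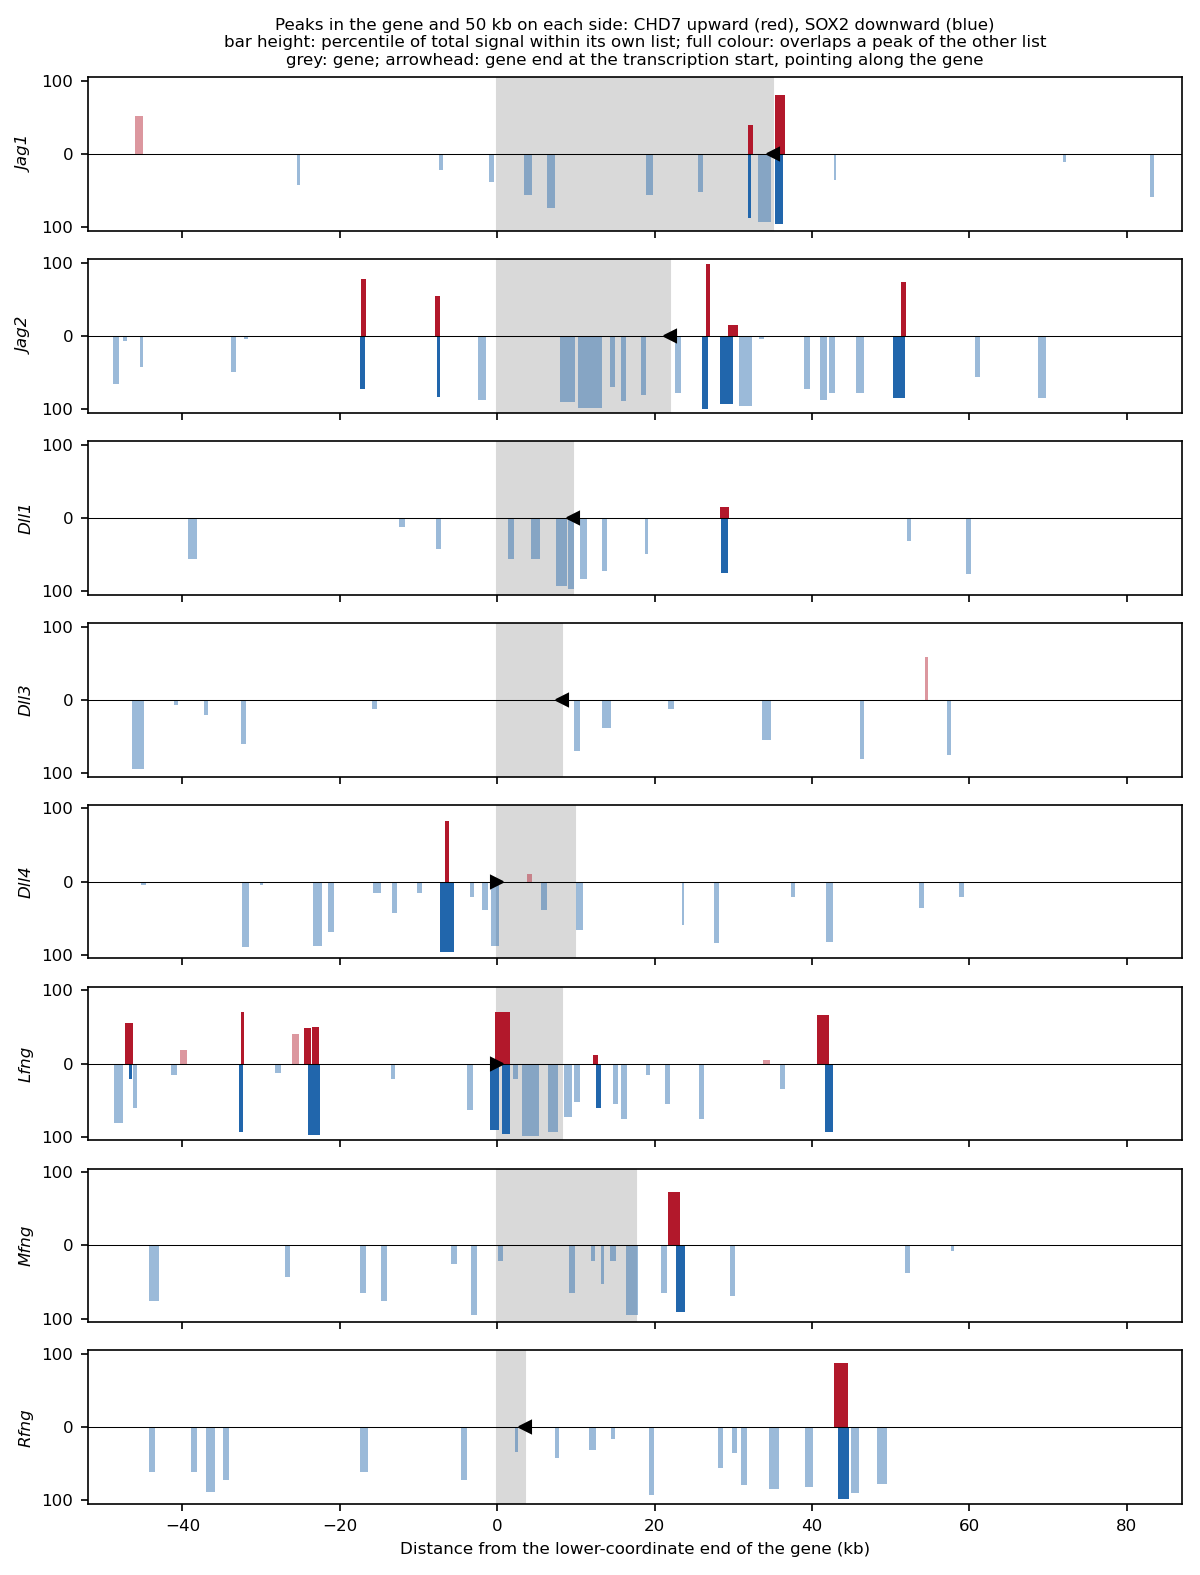
Peaks around the 8 genes, drawn by distance in kb from the lower-coordinate end of each gene (grey box), with CHD7 upward and SOX2 downward. Bar height is the percentile of total signal within its own list, full colour marks peaks that overlap the other list, and the arrowhead marks the gene end with the transcription start (not drawn for Mfng). CHD7 bars stand at the starts of Jag1 and Lfng, and Lfng has 10 CHD7 peaks in all.

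Jag1, the ligand of the prosensory domain (chromosome 2, 137081451 to 137116520), had overlapping CHD7 and SOX2 peaks just before its start and inside the gene. A CHD7 peak at 137116801 to 137118050, 281 bases before the start, had a total signal of 1061 (80.5th percentile). The SOX2 peak at 137116701 to 137117750 shared 950 bases with it and had the highest SOX2 signal of the locus, 3050 (95.7th percentile). The maximum-signal regions of this pair overlapped as well. A second SOX2 peak, at 137114551 to 137116250 (2404, 92.9th percentile), lay on the gene side of the start and had no CHD7 peak on it. Further inside the gene a CHD7 peak at 137113251 to 137113900 (588, 39.7th percentile) began at the same base as a SOX2 peak that ended at 137113700 (1789, 86.8th percentile). All 450 bases of that SOX2 peak were shared, at 2820 bases from the start. The other SOX2 peaks that touched the gene were 4 between the 51.1st and 73.9th percentile. Whether any of these places is exonic or intronic was not determined. The far end carried a weak SOX2 peak (938, 38.4th percentile) that was also at the end of the neighbour Slx4ip. Within 50 kb Jag1 had 3 CHD7 and 13 SOX2 peaks.

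Jag2, a ligand of nascent hair cells (chromosome 12, 112907803 to 112929812), had a SOX2-rich gene body with no CHD7 peak in it. Its 5 SOX2 peaks inside the gene had total signals of 2111, 4310, 1232, 1994 and 1525. The strongest of them, at 112918051 to 112921150, was 3100 bases wide and at the 97.9th percentile of total signal, but at the 55.2nd percentile of maximum signal, so it was broad and low. The single end peak, at 112930401 to 112931150 (1407, 77.6th percentile), lay 589 bases beyond the border of the gene. It would be lost with ends of 500 bases. The locus had 5 CHD7 peaks, and all 5 overlapped SOX2. Both proteins had their strongest peak of the locus at the end of another gene, Nudt14, 4489 and 3989 bases from Jag2, with 4623 for CHD7 (98.9th percentile) and 8474 for SOX2 (99.5th percentile). The CHD7 peaks on the other side of Jag2, at 112890451 to 112891100 (988) and at 112899851 to 112900500 (688), were at no protein-coding gene end. Which gene such peaks act on was not tested.

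Dll1, the Delta-type ligand of neuroblasts (chromosome 17, 15367354 to 15376932), had SOX2 peaks along its start side and no CHD7 peak in or next to it. The promoter table gave it an outer and an inner start. A SOX2 peak at 15376301 to 15377150 (3871, 97.4th percentile) held the outer start, and one at 15374801 to 15376200 (2492, 93.4th percentile) held the inner start. A further SOX2 peak, at 15377851 to 15378750 (1642, 84.1st percentile), lay 919 bases before the outer start. The only CHD7 peak within 50 kb was 18769 bases away, at the end of Fam120b, at 15395701 to 15396750. Its total signal of 478 (15.2nd percentile) was close to the lowest in the list.

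Dll3, a divergent ligand known for its role in somite formation and as an inhibitor of Notch in the same cell (chromosome 7, 28293555 to 28301785), was the gene with neither protein. No peak of either list touched it, against 75.1% of protein-coding genes touched by SOX2 and 43.4% by CHD7. The nearest SOX2 peak was 1.57 kb away, 1566 bases beyond the start, outside the 1 kb limit. The nearest CHD7 peak was 46.1 kb away, and it overlapped no SOX2 peak. The 11 SOX2 peaks within 50 kb were the fewest of the 8 genes, and 4 of these were at the ends of other genes.

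Dll4, the ligand best known from blood vessels (chromosome 2, 119325784 to 119335666), had SOX2 at both ends and its strongest peaks before the gene. The SOX2 peak at 119324951 to 119326000 (1877, 88.0th percentile) held the start, and it also covered the end of the long noncoding RNA gene Gm14207. A SOX2 peak at the far end was at 1173 (65.6th percentile). The strongest peaks of both lists overlapped at 6.08 kb before the gene. The CHD7 peak there, at 119319101 to 119319700 (1116, 82.2nd percentile), lay entirely in the SOX2 peak at 119318551 to 119320350 (3108, 95.8th percentile). Both were in the noncoding RNA gene Gm52558 and within 1 kb of an end of it. The SOX2 peak was also within 1 kb of an end of Gm14207. The 1 CHD7 peak inside Dll4 (464, 10.3rd percentile) was weak and unshared.

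Lfng, the fringe of the prosensory domain (chromosome 5, 140607341 to 140615545), had the most CHD7 peaks of the 8 genes. A CHD7 peak 1950 bases wide, at 140607051 to 140609000 (861, 70.8th percentile), spanned the start. SOX2 peaks at 140606451 to 140607500 (2111, 90.8th percentile) and at 140608001 to 140609000 (3577, 96.9th percentile) overlapped its ends. The maximum-signal regions overlapped in neither pair. The strongest SOX2 peak of the locus was inside the gene without CHD7, at 140610501 to 140612700 (7536, 99.4th percentile). The far end carried SOX2 peaks of 2463 and 1290. The summed SOX2 signal over the 4 end peaks was 9441.

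Before the Lfng start lay a group of shared peaks at no end of a protein-coding gene. A SOX2 peak at 140583251 to 140584800, 22541 bases before the start (4310, 97.9th percentile), overlapped CHD7 peaks at 140582851 to 140583650 (642) and at 140583751 to 140584650 (651). Another CHD7 peak, at 140574801 to 140575200 (856), overlapped a SOX2 peak of 2610 (94.0th percentile), 32141 bases before the start. The CHD7 peaks of the locus were of middle or low rank, from the 5.34th to the 70.8th percentile, so their number rather than their signal set Lfng apart. Of the 10 CHD7 peaks 7 overlapped SOX2, and 3 were at the ends of the neighbours Grifin and Ttyh3.

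Mfng and Rfng, the other fringe genes, had SOX2 at their ends and CHD7 only at a distance. Mfng (chromosome 15, 78755882 to 78773516) had a SOX2 peak of 2962 at its higher-coordinate end, at 78772201 to 78773800 (95.4th percentile), and 1 of 821 at the other end. Inside it lay 4 further SOX2 peaks. Its 1 CHD7 peak, at 78777601 to 78779100 (893, 72.8th percentile), was 4085 bases from the gene, inside the neighbour Card10, and overlapped a SOX2 peak of 2082. Rfng (chromosome 11, 120780745 to 120784251) had 1 SOX2 end peak, at 120783001 to 120783350 (880, 33.7th percentile), 854 bases from the start on the gene side and also within 1 kb of the end of Gps1. Its 1 CHD7 peak (1416, 88.4th percentile) was 39.2 kb away at the end of Fasn, the fatty acid synthase gene, where the SOX2 peak had 5219 (98.6th percentile).

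SOX2 peaks were denser than the all-gene median around all 8 genes, and CHD7 peaks around 4 of them. Per 100 kb of locus (the gene and 50 kb on each side) SOX2 peaks numbered 9.62 at Jag1, 10.2 at Dll3, 11.9 at Dll1, 14.5 at Mfng, 18.2 at Dll4, 18.4 at Rfng, 20.5 at Jag2 and 22.2 at Lfng. The median of all protein-coding genes was 7.41, with quartiles of 4.82 and 10.9, so 8 of 8 were above the median and 6 above the upper quartile. Lfng was at the 98.6th percentile of all genes, Jag2 at the 97.9th, Rfng at the 96.3rd and Dll4 at the 96.1st. CHD7 peaks per 100 kb numbered 0.85 at Mfng, 0.913 at Dll1, 0.924 at Dll3, 0.966 at Rfng, 1.82 at Dll4, 2.22 at Jag1, 4.1 at Jag2 and 9.24 at Lfng. Here the median of all genes was 1.54, and 4 of 8 were above it. Lfng was at the 99.7th percentile and Jag2 at the 91.7th, while Dll1, Dll3, Mfng and Rfng, with 1 CHD7 peak each, were between the 28.6th and the 37.2nd. At least 1 CHD7 peak within the locus was found for all 8, where 82.9% of genes had one, and at least 1 SOX2 peak also for all 8, against 98.7%.

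The order of the genes in CHD7 density rested on few peaks. Lfng held 10 of the 24 CHD7 peaks of the 8 loci. Over all 8 the pooled density, all peaks over the summed length of the loci, was 2.63 per 100 kb, and without Lfng it was 1.74. A pooled density is not the same measure as a median over genes. The median of the 8 genes was 1.39 for CHD7, against 1.54 for all genes, and 16.3 for SOX2, against 7.41. The pooled SOX2 density was 15.5 with Lfng and 14.6 without it. Of the 20 CHD7 peaks outside the genes and their ends 6 were at an end of another protein-coding gene, and of 107 such SOX2 peaks 16 were.

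**Figure D2:**
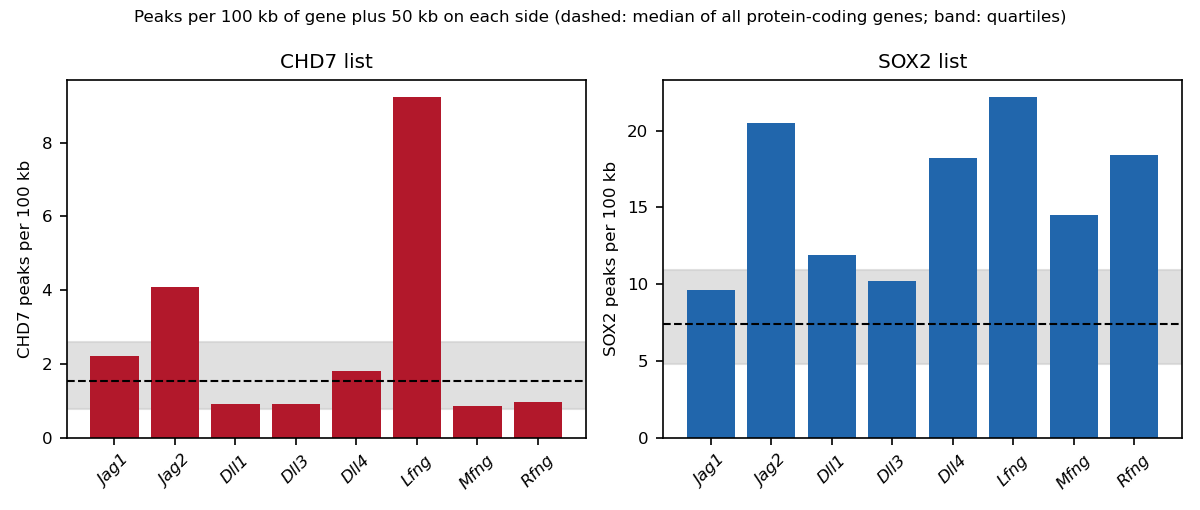
Peaks per 100 kb of the gene and 50 kb on each side for each of the 8 genes, CHD7 at the left and SOX2 at the right, on separate scales from 0. The dashed line is the median of all protein-coding genes (1.54 and 7.41) and the band spans their quartiles. SOX2 bars are all above the dashed line, and the CHD7 bar of Lfng, 9.24, is over the band.

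SOX2 peaks also covered a large share of several of the genes themselves. The share of gene bases inside SOX2 peaks was 62.3% for Lfng, 40.0% for Dll1, 31.3% for Jag2, 24.8% for Mfng and 16.8% for Jag1. It was 9.98% for Rfng, 9.78% for Dll4 and 0 for Dll3. The median of genes within 2 times the length of each member was between 4.72% and 7.63%, and 7 of 8 members were above theirs. Among genes of similar length Lfng was at the 99.8th percentile, Jag2 at the 99.0th, Dll1 at the 98.6th, Mfng at the 96.8th and Jag1 at the 95.1st. Dll4 and Rfng were at the 63.2nd and 55.2nd. CHD7 peaks covered 20.2% of Lfng (96.6th percentile), 6.58% of Dll4 and 1.85% of Jag1, and none of the others. Dll1, Jag2 and Mfng combined high SOX2 coverage with no CHD7 peak inside, and 43.4% of all protein-coding genes were touched by a CHD7 peak.

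**Figure D3:**
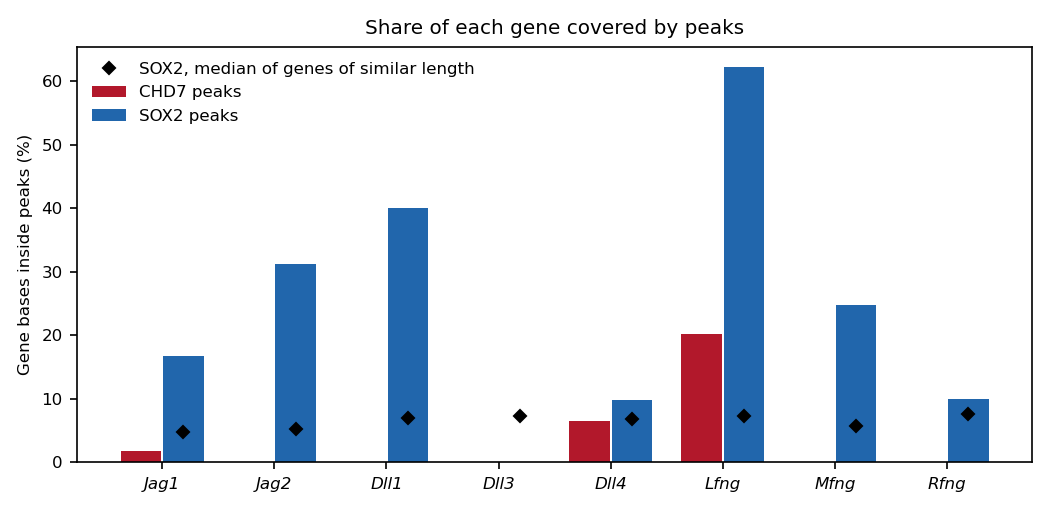
Share of each gene's bases inside CHD7 peaks and inside SOX2 peaks, in percent, with diamonds for the median SOX2 share of genes within 2 times the length. SOX2 bars reach 62.3% at Lfng and 40.0% at Dll1, and Dll3 has no bar.

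Where CHD7 was detected in these loci, SOX2 was mostly detected too. Of the 24 CHD7 peaks 18 shared at least 1 base with a SOX2 peak, or 75.0% (exact binomial 95% interval 53.3% to 90.2%), against 65.3% of all CHD7 peaks. Of the 142 SOX2 peaks 18 were shared, or 12.7% (7.69% to 19.3%), against 14.7% of all. Both intervals include the value of the whole list. They cover counting error only and treat the peaks as independent. Peaks of 1 locus are not replicates, and Lfng alone held 10 of the 24 CHD7 peaks. The shared peaks formed 19 pairs, and in 16 of these at least 50% of the smaller peak was shared. By that rule 66.7% of the CHD7 peaks were shared, near the 63.0% of all CHD7 peaks. The maximum-signal regions overlapped in 5 pairs: the start and inside pairs of Jag1, the Nudt14 pair near Jag2 and 2 pairs at a distance from Lfng. Shared SOX2 peaks had a median total-signal percentile of 92.0 and unshared ones 58.8, and for CHD7 the values were 68.2 and 28.8. The SOX2 peak was in the top 10% of its list in 12 of 19 pairs, with 1 SOX2 peak before Lfng counted in 2 of them. These medians and this count were not computed over all shared peaks, so they are not shown to be particular to these loci.

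Strong SOX2 peaks of these loci were often broad. By total signal 23 of 142, or 16.2%, were in the top 10% of the list, and 8 of these were among the 16 end peaks. The share of all SOX2 end peaks in the top 10% was not computed. By maximum signal 14 of 142 were, or 9.86%, near the 9.65% of the whole list. Total signal is summed over the bases of a peak, so wide peaks rank higher by construction. The 23 had a median width of 1300 bases, from 600 to 3100, against 1100 for all SOX2 peaks in the top 10%. For CHD7 the only peak in the top 10% by total signal was the Nudt14 peak, and it was neither at Jag1 nor at Lfng. By maximum signal 3 of 24 were in the top 10%, or 12.5%, against 9.81% of the list, and by total signal 4.17%.

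Among the rest of the Notch pathway most genes had CHD7 at an end. Of 39 other pathway genes 23 had a CHD7 end peak (59.0%), 32 a SOX2 end peak (82.1%) and 22 both. The shares of all protein-coding genes were 30.8%, 59.7% and 28.3%. The ligands had CHD7 at 1 of 5 and the fringes at 1 of 3, together 2 of 8 and near the background. The difference between the other pathway genes and the members was not tested. With the stronger 50% of each list the CHD7 counts were 13 of 39 and 2 of 8, where 19.2% of all genes had CHD7. All 4 receptor genes, Notch1 to Notch4, had both, and so did 7 of 8 effector genes. Hes7, a HES repressor known from the somite clock, had the highest CHD7 signal among them, summing to 7460 at its ends, and 12670 for SOX2. Hes6 (1330 and 5659), Hey2 (1207 and 12990), Hes1 (2195 and 2639), Notch1 (879 and 3167) and Mib2 (924 and 4222), which encodes a ubiquitin ligase of Notch ligands, also had both. Rbpj, Spen, Heyl and Psen2 were among the 6 genes with neither at an end. SOX2 peaks still touched each of these named genes, and CHD7 peaks touched Rbpj and Psen2. Of the non-canonical ligands Dlk1, Dlk2 and Dner all 3 had SOX2 and none had CHD7 at an end. The receptor glycosylation genes Pofut1, which adds the O-fucose that fringes extend, and Poglut1 both had SOX2, and Pofut1 also CHD7.

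**Figure D4:**
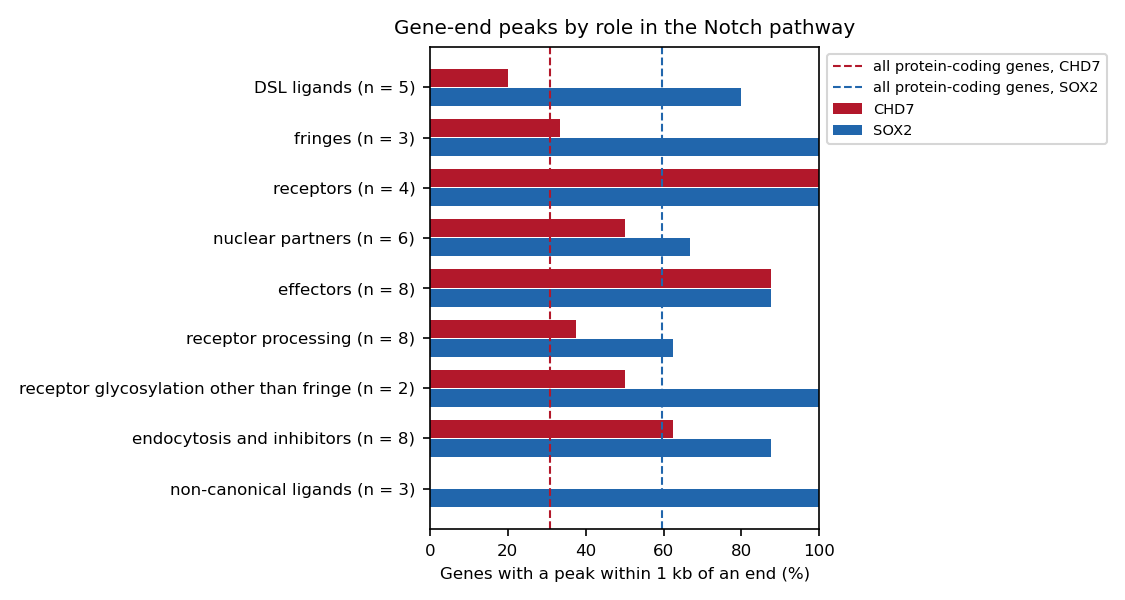
Share of genes with a peak within 1 kb of an end, in percent, by role in the Notch pathway, with the number of genes in each role. Dashed lines mark all protein-coding genes, 30.8% for CHD7 and 59.7% for SOX2. The CHD7 bar is full for the receptors, with 4 of 4, and short for the ligands, with 1 of 5.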

How the data were processed

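CUT&Tag was done on otocyst cells at E10.5 with 1 library for each antibody. Per the submitters' processing notes the tools were Bowtie2, deepTools and SEACR and the build was mm10. Not given in the sources used here: versions, thresholds, scaling, duplicates and the use of the control. The deposited signal values are, by their layout, the coverage summed over a peak and its maximum, from the authors' SEACR-style lists without a header, with peak borders in bins of 50 bases. Peaks were called per library. Coordinates are printed counting from 1.

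Gene borders came from a RefSeq table of GRCm38.p6 and starts from its promoter table, which held 7 of the 8 genes and 17492 protein-coding genes. All 39 other pathway genes were found by symbol. Exons were not told apart. An end was within 1 kb of either border, a locus the gene and 50 kb on each side, and a shared peak had at least 1 base in common with the other list. Percentiles give ties their mean rank. Similar length means within 2 times. Shares have exact Clopper-Pearson intervals at 95%.

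The members and lists were chosen with earlier results of these data known, so no p-values are given, and gene coverage, peak breadth and the values without Lfng were added after the peaks were seen. Members, every overlapping pair in or at them and the strongest peak per locus were named by rule, and of other pathway genes those highest in both lists and some with neither. The remaining pairs and neighbours in the text were picked with their values in view. Alternatives were other windows, stricter peak sets, overlap rules and maximum signal. The interval methods were tested on simulated data. Intervals were handled with numpy 2.4.6 and pandas 2.3.3 in Python 3.11.15, with scipy 1.17.1 for binomial limits and matplotlib 3.10.9 for figures.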

Additional observations from a re-analysis of the deposited data

How the results depend on the processing

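Of 47 alternative values 35 stayed close to the reported value, within 1.5 times for counts and densities and within the 95% interval for shares. CHD7, and both proteins, were at an end of 2 of the 8 genes under all 5 alternatives for gene ends, but against other backgrounds. The share of all genes with CHD7 was 34.1% with ends of 2 kb, 19.2% with the stronger 50% of each list and 13.3% with the 10000 strongest peaks, and with both 31.7%, 17.7% and 9.06%. The members' share with CHD7 was thus below the background with the full lists and above it with the stricter ones. For both proteins the same held except at transcription starts, where 2 of 7 was just above the 28.2% of all genes. The count was 2 in each setting while the background changed, so no direction is read from so few genes. SOX2 was at an end of 4 to 8. With ends of 500 bases it was 5 of 8, near the 52.4% of all genes, and with 2 kb 8 of 8, against 68.6%. With the stronger 50% of each list it was 6 of 8, against 47.7%. With the 10000 strongest peaks of each list SOX2 was at an end of 4, where 16.9% of all genes had one. With the stronger 50% of each list the other pathway genes with CHD7 were 13 of 39 and those with both 12. Densities in this section are pooled over the loci, while the all-gene medians beside them are per gene. With the stronger 50% they were 1.53 for CHD7 and 10.3 for SOX2 per 100 kb, against all-gene medians of 0.794 and 3.8. The SOX2 density was 24.7 with 5 kb on each side (all-gene median 7.71) and 4.81 with only as many of the strongest SOX2 peaks as there are CHD7 peaks (1.71). Without the Lfng locus, chosen after seeing the data, the CHD7 density was 1.74. The share of CHD7 peaks on SOX2 was 20.8% when maximum-signal regions had to share a base (19.8% of all CHD7 peaks). With 20 kb on each side it was 91.7%, 11 of 12, against 65.3% of all CHD7 peaks. Its 95% interval, 61.5% to 99.8%, includes that value. The share of SOX2 peaks on CHD7 was 31.8% with that shorter SOX2 list (40.6% of all). By maximum signal 9.86% of the SOX2 peaks were in the top 10%, near the 9.65% of the whole list, and 12.5% of the CHD7 peaks were, above the 9.81% of that list. Shorter or stricter lists hold fewer peaks by construction, and the cause of the other shifts was not tested. No paired analysis was possible because each antibody has 1 library. Read depth is unknown, so the absence of a peak, as at Dll3, shows only that none passed the authors' threshold.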
